A study of Homo sapiens with 6 samples.

Results

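Of the 6758 METTL3 peaks that PC3 cells gave on chromosomes 1 to 22 and X of hg38, chromosome 8 left out, 3602 lay between genes. A peak was counted here when its summit was outside every protein-coding gene and more than 3 kb from both ends of each one. METTL3 is the catalytic subunit of the complex that writes N6-methyladenosine (m6A) on nascent RNA while the RNA is being made on chromatin. PC3 is an androgen-independent prostate cancer line started from a bone metastasis. The sequence between protein-coding genes holds enhancers, genes of long noncoding RNAs, pseudogenes, and long repeat arrays near centromeres and chromosome ends.

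The study profiled METTL3 and PRMT5, an arginine methyltransferase, in PC3 and in LNCaP, an androgen-responsive prostate cancer line, with 1 library per antibody and line and 1 control library per line, 6 in all. The PC3 METTL3 library was made with an Abcam antibody, and its peaks were called against the PC3 control, which is titled IgG and whose antibody field names a secondary antibody. The same holds for the PC3 PRMT5 peaks, so the PC3 lists share a control, and the LNCaP METTL3 and PRMT5 peaks were called against the LNCaP control. Every library came from 100000 cells and 16 PCR cycles of an in-situ assay, in which protein G tethers Tn5 transposase to the antibody and the enzyme cuts and tags the chromatin there. No label names a genetic change or a treatment. The lists hold peak positions and not gene expression, so the identity of the lines could not be checked against marker genes. Read depth is unknown, and with 1 library per group every value describes that list; intervals are exact 95% intervals and cover counting error only.

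The sequence of most peaks was not used here. A table of RefSeq promoter windows (GRCh38.p14, whose chromosomes carry hg38 positions; 250 bases before a gene's start to 50 after it) held sequence for the few peaks that touched such a window of a noncoding gene. Of the 3602 peaks, 17 touched such windows, 19 windows of 17 genes, and all 19 belonged to long noncoding RNA genes. The 3 kb limit kept these peaks off the windows of protein-coding genes, and the count for the other METTL3 peaks is not given here. In 5 of the 19 the summit itself lay in the window. These 5 are shown because a METTL3 summit between protein-coding genes lay in the promoter window of an annotated long noncoding RNA gene. The LINC02097 and SERPINB9-AS1 peaks reached over the start itself. The peaks at LINC01972, LOC124900703 and LINC00955 covered the first 229, 192 and 242 bases of the window and ended before the start. Each runs 5′ to 3′ on the strand of its gene, and capitals mark the bases inside the METTL3 peak.
LINC01972, chr3:194768660-194768959, minus strand: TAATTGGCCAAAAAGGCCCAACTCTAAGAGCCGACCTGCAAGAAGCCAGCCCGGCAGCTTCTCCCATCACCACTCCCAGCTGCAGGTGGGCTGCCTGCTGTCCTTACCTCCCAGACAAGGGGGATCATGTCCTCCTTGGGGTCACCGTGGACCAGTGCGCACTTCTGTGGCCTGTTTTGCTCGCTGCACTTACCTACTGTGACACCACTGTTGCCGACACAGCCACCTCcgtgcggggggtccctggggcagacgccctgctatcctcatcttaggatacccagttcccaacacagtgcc
LOC124900703, chr4:55035330-55035629, minus strand: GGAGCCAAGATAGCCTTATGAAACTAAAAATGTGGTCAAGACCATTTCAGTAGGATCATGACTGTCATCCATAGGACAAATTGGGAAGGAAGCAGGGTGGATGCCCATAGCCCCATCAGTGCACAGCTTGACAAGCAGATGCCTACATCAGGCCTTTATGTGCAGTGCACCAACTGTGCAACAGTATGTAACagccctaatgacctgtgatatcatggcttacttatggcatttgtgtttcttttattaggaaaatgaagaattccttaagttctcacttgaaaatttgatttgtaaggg
LINC02097, chr17:72072083-72072382, plus strand: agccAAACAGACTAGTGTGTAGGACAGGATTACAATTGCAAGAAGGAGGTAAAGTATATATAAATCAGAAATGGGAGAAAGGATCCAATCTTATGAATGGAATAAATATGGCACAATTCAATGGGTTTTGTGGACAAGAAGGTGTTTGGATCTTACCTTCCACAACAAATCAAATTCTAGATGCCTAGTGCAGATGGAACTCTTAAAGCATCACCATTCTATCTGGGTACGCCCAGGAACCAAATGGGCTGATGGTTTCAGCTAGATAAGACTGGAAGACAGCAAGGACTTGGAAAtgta
SERPINB9-AS1, chr6:2883738-2884037, plus strand: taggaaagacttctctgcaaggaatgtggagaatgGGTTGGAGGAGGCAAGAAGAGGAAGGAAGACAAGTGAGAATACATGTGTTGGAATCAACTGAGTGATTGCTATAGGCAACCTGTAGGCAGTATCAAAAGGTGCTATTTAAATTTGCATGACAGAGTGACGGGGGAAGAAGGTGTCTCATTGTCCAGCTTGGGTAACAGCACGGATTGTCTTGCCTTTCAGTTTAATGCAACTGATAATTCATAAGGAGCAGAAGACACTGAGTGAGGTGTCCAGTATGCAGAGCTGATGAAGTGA
LINC00955, chr4:3576619-3576918, plus strand: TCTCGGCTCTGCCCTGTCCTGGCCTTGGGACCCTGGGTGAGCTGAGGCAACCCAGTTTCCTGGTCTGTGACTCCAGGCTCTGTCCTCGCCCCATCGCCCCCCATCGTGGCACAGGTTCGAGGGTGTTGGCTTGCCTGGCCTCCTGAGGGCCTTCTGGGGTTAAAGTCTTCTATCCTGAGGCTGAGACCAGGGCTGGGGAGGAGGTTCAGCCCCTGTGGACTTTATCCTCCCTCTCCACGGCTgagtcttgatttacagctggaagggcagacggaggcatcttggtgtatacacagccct

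At LINC02097, the summit was 1 base before the start, at a position of -1, and the peak covered 292 of the 300 bases, with a fold of 4.70 over the control. The nearest protein-coding gene, that of the cartilage and gonad transcription factor SOX9, was 48.7 kb from this summit. The SERPINB9-AS1 peak (fold 4.40) had its summit at -26 from the start and was 3.31 kb from SERPINB9, which encodes a granzyme B inhibitor, just beyond the limit used here. The LINC00955 peak (fold 4.40) had its summit at -78, the LOC124900703 peak (fold 5.78) at -71, 43.0 kb from the VEGF receptor gene KDR, and the LINC01972 peak (fold 5.83) at -133. These folds span the ordinary range of the peaks between genes, so a summit in such a window did not stand out by its fold.

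The 19 touched windows had a median GC content of 49.7% and a median of 4 CG dinucleotides, against 58.7% and 14 in all 34789 windows and 50.0% and 5 in the 12806 windows of long noncoding RNA genes. Motifs were searched on both strands. TATAAA, the TATA box, was in 6 of the 19 windows, in 15.1% of the windows of long noncoding RNA genes and in 11.6% of all windows. GGGCGG, a GC box, was in 2 of 19, in 25.6% of the long noncoding RNA windows and in 45.0% of all. TGANTCA, the AP-1 site, was in 1 of 19, in 10.3% of the long noncoding RNA windows and in 7.69% of all. GGACT, one form of the m6A consensus in RNA, was in 11 of 19, in 42.1% of the long noncoding RNA windows and in 44.1% of all. The 19 windows include overlapping pairs at LOC105372004 and LOC105372121, so they are fewer than 19 separate sequences, and a match describes letters and not a bound site. Most of each window lies before the start and both strands were searched, so a GGACT match need not be in the RNA.

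Of the 1558 miRNA hairpins in the RefSeq table on these chromosomes, 1 lay under a peak between genes. The 1558 take in hairpins inside protein-coding genes, which the rule for these peaks leaves out. Hairpins under the other METTL3 peaks are not given here. The peak at chr15:75762154-75762445, with a fold of 7.13, spanned the whole hairpin of MIR4313, 34.5 kb from CIMAP1C. Its mature miRNA is shown because it is the only one covered by a peak between genes, with the seed (bases 2 to 8) in capitals.
hsa-miR-4313: aGCCCCCUggccccaaaccc

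Outside long gene-free stretches, peaks between genes were as dense as peaks in and beside genes. Outside 26 stretches of at least 2 Mb that hold no gene of any type, the chromosomes offered 1431.6 Mb between genes and 1282.2 Mb inside genes or within 3 kb of one. The first held 3525 peaks, 2.46 per Mb, and the second 3156 peaks, also 2.46 per Mb. Sequence between genes thus made up 52.8% of what was searched and held 52.8% of the peaks. The 26 stretches, 170.5 Mb in all, held the other 77 peaks between genes, 0.452 per Mb. They count as sequence between genes, so the match of the densities depends on leaving them out. Over the whole list the share between genes was 53.3% (52.1 to 54.5).

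The other lists held smaller shares between genes. Peaks between genes were 32.1% (29.8 to 34.5) of 1581 PC3 PRMT5 peaks, 508 peaks, and 35.8% (32.7 to 39.0) of 927 LNCaP PRMT5 peaks, 332 peaks. The LNCaP METTL3 list had 74 of 155 peaks between genes, 47.7% (39.7 to 55.9), and this interval takes in the 53.3% of PC3 METTL3. With 1 library per list these shares describe the lists, and the differences were not tested.

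Distance to the nearest gene made a small difference to where peaks lay. The median peak between genes was 100.7 kb from a protein-coding gene, with quartiles of 30.3 and 308 kb. The median point of the sequence between genes was 107 kb away, with quartiles of 29.8 and 326 kb. Those peaks are all 3602, while that sequence leaves out the long gene-free stretches. The densities and shares that follow leave the stretches out of both. Per Mb, peaks numbered 2.35 (2.1 to 2.63) at 3 to 10 kb, 2.57 at 10 to 30 kb, 2.68 (2.50 to 2.86) at 30 to 100 kb, 2.48 at 100 to 300 kb and 2.31 at 300 to 1000 kb. Beyond 1000 kb the density was 1.85 (1.53 to 2.22). The density at 30 to 100 kb was the highest, and its interval left out every other class but 10 to 30 kb. The share of peaks stood above that of the sequence at 30 to 100 kb, 25.5% (24.0 to 27.0) against 23.4%. It stood below at 300 to 1000 kb, 21.05% (19.71 to 22.43) against 22.47%, and beyond 1000 kb, 3.32% (2.75 to 3.97) against 4.41%. Peaks also fell on both sides of genes much as the sequence did. Where the strand of the nearest gene was in the promoter table, 1564 of 2953 peaks lay on its 5′ side, 53.0% (51.1 to 54.8), and 52.6% of the sequence did. Within 10 kb, 119 of 250 did, 47.6% (41.3 to 54.0), against 53.0% of the sequence.

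**Figure D1:**
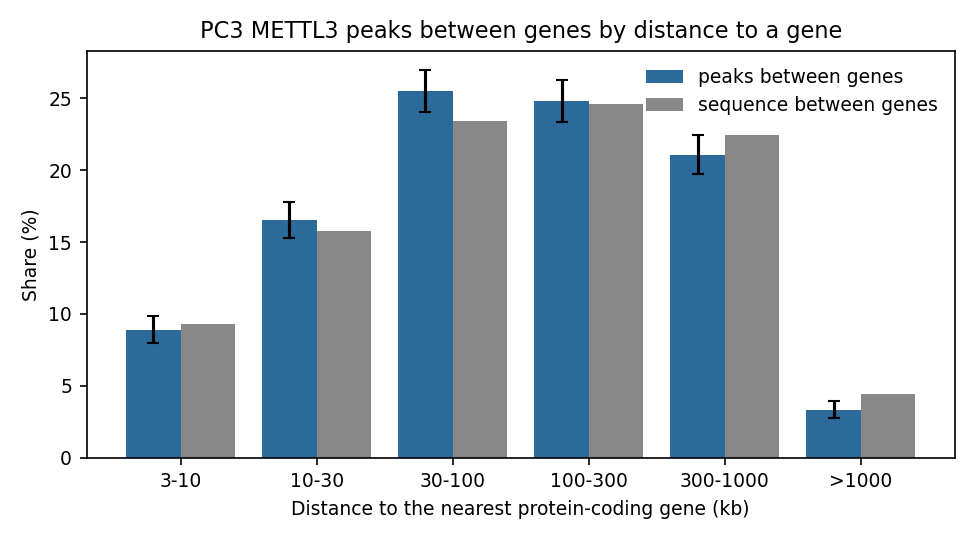
Share of PC3 METTL3 peaks between genes (blue bars, with exact 95% binomial intervals) and of the sequence between genes (grey bars) in 6 classes of distance to the nearest protein-coding gene, in kb. The grey bar lies within the interval at 3 to 10 kb (8.88% of peaks and 9.30% of sequence) and outside it at 30 to 100 kb (25.5% and 23.4%), at 300 to 1000 kb (21.05% and 22.47%, just above the upper limit) and beyond 1000 kb (3.32% and 4.41%).

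At the limit itself, the nearest peaks kept were 3030 bp from SNAP47 (fold 5.54), 3040 bp from LOC112268076 (6.22) and 3049 bp from OR8I2 (4.52). The first ones left out were 2982 bp from ARF1 (4.49), 2963 bp from CFAP184 (3.32) and 2949 bp from OR2T6 (5.15).

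Noncoding genes were hit in proportion to their length. Summits inside a long noncoding RNA gene numbered 837, 23.2% (21.9 to 24.7) of the peaks, in 709 genes, and 112 lay inside a pseudogene, 3.11%. Outside the long gene-free stretches 23.7% of the peaks lay in long noncoding RNA genes, which cover 23.1% of the sequence between protein-coding genes. The 2432 peaks more than 3 kb from every gene of any type were 67.5% of the peaks. Outside the stretches that share was 66.8%, and 67.5% of the sequence met the same rule.

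The long noncoding RNA genes with 5 or more summits, picked after their values were seen, were long ones. LOC124902439 on chromosome 10, 820.4 kb long, held 15 peaks with folds of 3.79 to 6.83. LOC105378178 on chromosome 14, 894 kb long, held 8, and LOC105370733 on chromosome 15 held 6. SOX2-OT, which overlaps the stem cell transcription factor gene SOX2 and is 685.5 kb long, held 5, with folds of 4.54 to 5.61. LINC00871 on chromosome 14 also held 5. Counts did not simply follow length, as LINC02621 on chromosome 10, 44.9 kb long, and LINC03000 on chromosome 5, 765 kb long, held 4 each. LINC02621 and LOC124902439 both lie in a block of chromosome 10 with dense peaks, described below. LOC124902439 lies largely in the densest window of 1 Mb there, so its count and those of that block overlap.

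Peaks between genes had the folds and widths of the other peaks. Their median fold was 5.10, with quartiles of 4.48 and 5.92, and that of the 3156 other peaks was 5.06, with quartiles of 4.47 and 5.92. The median −log10 q was 3.57 in both classes. The smallest width the caller reported, 292 bp, was the width of 2639 peaks between genes, 73.3%, and of 75.1% of the others. Folds fell on few values: 10 values covered 1982 of the peaks between genes, 55.0%, and the commonest, 5.01, was shared by 290. Order among peaks of middling fold therefore says little.

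**Figure D2:**
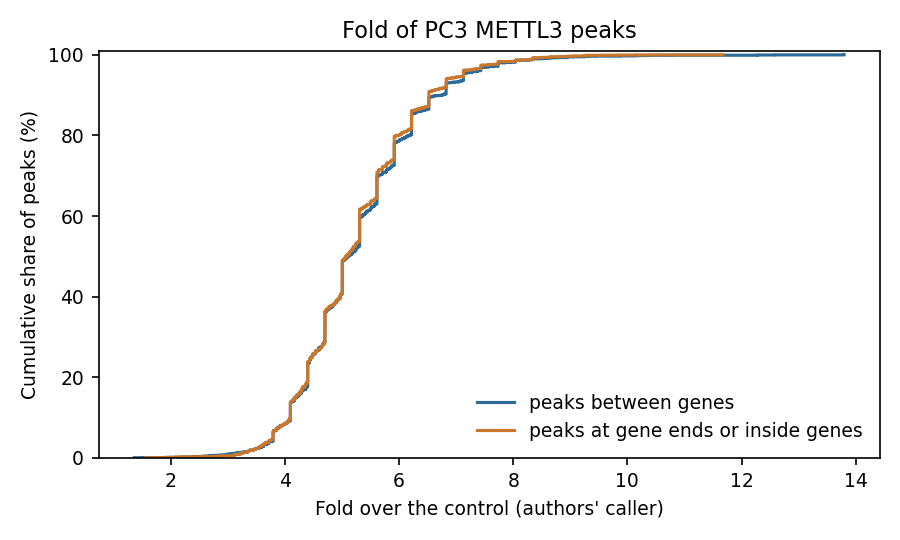
Cumulative share of PC3 METTL3 peaks (%) by their fold over the control, for peaks between genes (blue) and peaks at gene ends or inside genes (orange). The curves nearly coincide, with medians of 5.10 and 5.06, and rise in steps where many peaks share a fold.

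High folds were about as common between genes as over the whole list. A fold of at least 8 was reached by 67 peaks between genes, 1.86%, by 52 of the others, 1.65%, and by 1.76% of all 6758 peaks. A fold of at least 10 was reached by 10, 0.278%, by 2 of the others, 0.0634%, and by 0.178% of all, counts too small to set apart without a test, and none was run. Among the 20 highest peaks between genes, 12 lay over 100 kb from a protein-coding gene and 6 in a long noncoding RNA gene. Of all 3602 peaks between genes 50.1% and 23.2% did, so these counts are near those shares. In repeat-prone places lay 5 of the 20, against 6.55% of the 3602. A repeat-prone place is one within 1 Mb of the outermost gene or peak of a chromosome, or in or within 1 Mb of one of the gene-free stretches.

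The highest fold, 13.8, was at chr4:166580033-166580694, 153.2 kb beyond the 3′ end of SPOCK3, which encodes a secreted proteoglycan. A PC3 PRMT5 peak overlapped it with a fold of 5.14. The next, of fold 12.6, at chr4:63201446-63201905, lay 1075 kb from TECRL, a gene linked to inherited arrhythmia. A peak of fold 12.3 on chromosome 10 lay 235.5 kb upstream of TMEM72, and another of fold 12.3 on chromosome 2, inside the noncoding gene LOC105373451, lay 260.1 kb beyond RDH14, which encodes a retinol dehydrogenase. None of these 3 overlapped a peak of another list.

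Closer to genes, a peak of fold 10.8 at chr1:173460774-173461245 lay 10.2 kb upstream of TNFSF4, which encodes the T cell costimulator OX40 ligand, inside the overlapping noncoding genes PRDX6-AS1 and LOC100506023. One of fold 9.44 lay 9.12 kb upstream of LRRN1, a neuronal leucine-rich repeat gene, and had a PC3 PRMT5 peak of fold 7.82. A peak of fold 9.25 lay 18.4 kb upstream of GNPNAT1, an enzyme gene of UDP-N-acetylglucosamine synthesis, and 1 of the same fold lay 29.6 kb from TMEM26. The peak 582.6 kb upstream of LSAMP, a neuronal adhesion gene, had a fold of 9.86. Besides the regions near EDIL3 and MRPL14 described with the PRMT5 overlaps, peaks of the 20 lay nearest CCSER2 (fold 10.4), GOLGA8G (9.27), C12orf75 (9.05) and EFCAB12 (8.95), and GOLGA8G belongs to a family of near-identical copies, where reads can be shared.

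In repeat-prone places, the 5 of the 20 highest were nearest WSB1 (fold 10.3), EMB (10.1), ZNF716 (9.86), PROS1 (9.30) and EPHA3 (9.25), each at least 166.6 kb away. Such places held 236 peaks between genes, 6.55%, and 72 of the others, 2.28%. The gene-free stretches in the definition can hold only peaks between genes, 77 here, so this difference is partly set by the rule. The share of the sequence in such places is not given here. The 236 peaks had a median fold of 5.00, close to the 5.16 of the remaining peaks between genes. The 7 peaks with a −log10 q above 50 all lay in repeat-prone places and all between genes, which the same rule favours. The extreme one, at chr3:93470280-93470938, had a −log10 q of 22230 at a fold of 3.87. Another 3 stood together on chromosome 4, 647.4 to 649.5 kb from CWH43, with −log10 q values of 797.6 to 1448 and folds of 2.52 to 3.43, 2 lay 705.7 and 706.9 kb from FRG1, and 1 lay 726.5 kb from DCUN1D4. The 5 peaks farthest from any protein-coding gene, 4243 to 4592 kb from the olfactory receptor gene OR11H1, were also in a repeat-prone place, on chromosome 22, with folds of 1.86 to 7.05.

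Chromosomes differed far more than distance classes did. Peaks per Mb between genes ran from 0.763 (0.406 to 1.30) on chromosome 22 to 4.69 (4.27 to 5.13) on chromosome 3, a 6.14-fold range. Chromosome 10 had 4.68 (4.16 to 5.25), chromosome 14 had 4.49 (3.91 to 5.12) and chromosome 20 had 3.44. These 4 held 30.9% of the peaks in 17.0% of the sequence between genes. Chromosomes 16, 13, X and 22, the lowest 4, held 5.90% of the peaks in 14.9% of the sequence. Peaks in and beside genes were dense and sparse on mostly the same chromosomes, with 3.73 per Mb on chromosome 3, 3.61 on chromosome 10, 5.79 on chromosome 14 and 0.951 on chromosome 22. The intervals of both densities overlapped on 20 of 22 chromosomes, which does not show the densities to be equal there. They parted on chromosomes 3 and 10, where peaks between genes were the denser. On chromosome 14 they barely overlapped, and peaks in and beside genes were the denser, 5.79 (5.07 to 6.59) against 4.49 (3.91 to 5.12). On chromosome 13 the intervals also overlapped only in part, with 1.01 (0.771 to 1.29) between genes and 0.545 (0.328 to 0.851) in and beside genes. PC3 PRMT5 peaks between genes were at 0.714 per Mb on chromosome 10 and 0.717 on chromosome 14 but at 0.242 on chromosome 3, and they were densest on chromosome 17, with 1.64. The densities are per Mb of the reference; the copy number of each chromosome in PC3 was not analysed here, so they are not densities per copy.

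**Figure D3:**
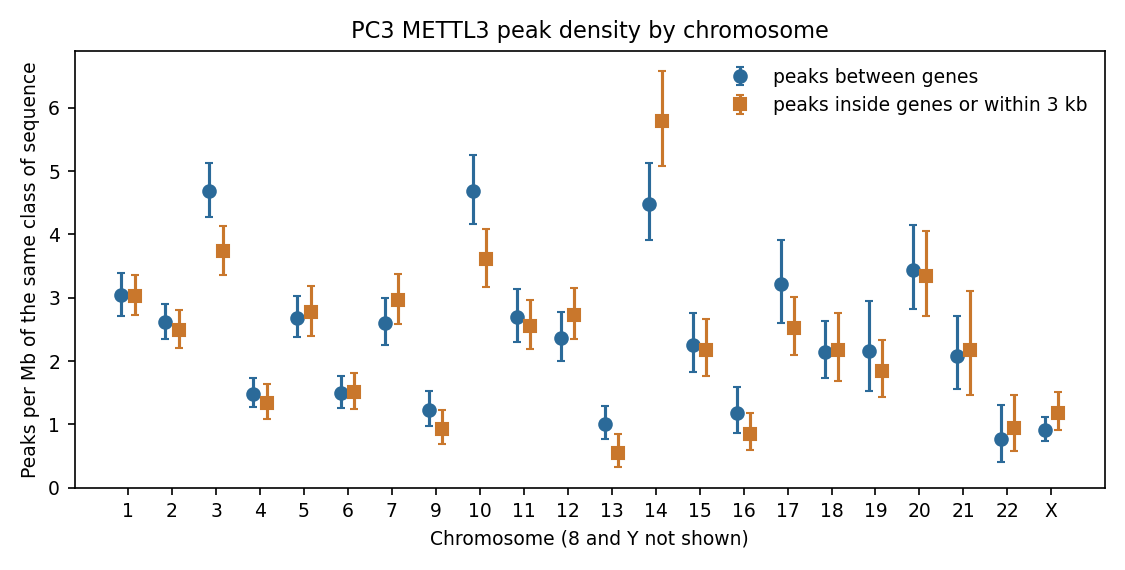
PC3 METTL3 peaks per Mb on each chromosome, between genes (blue circles) and inside genes or within 3 kb of one (orange squares), each per Mb of the same class of sequence and with exact 95% Poisson intervals. Both series are high on chromosomes 3, 10 and 14 and low on 13, 22 and X. Their intervals overlap on 20 of the 22 chromosomes, though barely on chromosome 14, where the orange square is the higher.

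Within chromosome 10 the density changed in a block. From 30 to 80 Mb, 238 peaks lay in 23.0 Mb between genes, 10.4 per Mb (9.09 to 11.8), and the rest of the chromosome had 57 in 40.1 Mb, 1.42 per Mb (1.08 to 1.84). Peaks in and beside genes had 8.00 per Mb (6.90 to 9.23) in the block and 1.24 (0.928 to 1.61) outside it. Its densest 10 Mb, from 60 to 70 Mb, had 17.5 peaks per Mb between genes and 9.29 per Mb in genes, and 80 to 90 Mb, just past the block, had 1.54 and 2.29. On chromosome 14, 50 to 70 Mb held 11.0 per Mb (8.84 to 13.5) between genes and 9.99 in genes, against 3.23 (2.70 to 3.83) and 4.03 elsewhere on it. The limits of both blocks were chosen after the densities were seen. Without both blocks, and again outside the gene-free stretches, 52.9% of peaks lay between genes, in 52.9% of the sequence. The match of peaks to sequence thus did not rest on these blocks.

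The 8 windows of 1 Mb with most peaks between genes all lay in the chromosome 10 block and held 111 peaks. The first, from 64 to 65 Mb, held 18 peaks, nearest REEP3 (15), which encodes a shaper of the endoplasmic reticulum, and CTNNA3 (3), an alpha-catenin gene of cell junctions; the whole window, 1.0 Mb, lay between genes and held no PC3 PRMT5 peak. From 62 to 63 Mb there were 16, nearest RTKN2, ADO, EGR2 and others, and from 63 to 64 Mb 14, nearest the autophagy gene NRBF2 (7), REEP3 (6) and the demethylase gene JMJD1C. From 53 to 54 Mb there were 14, nearest the protocadherin gene PCDH15 (10) and MBL2 (4), a complement-activating lectin gene, and from 37 to 38 Mb 13, nearest ANKRD30A and ZNF248. Their median folds, 4.67 to 5.65, were those of ordinary peaks.

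Of 1310 windows of 1 Mb with at least 0.5 Mb between genes, 404 held no peak and 113 held 5 or more. Those 113 windows, 8.63% of all, held 33.6% of the peaks counted. The variance of the count, 4.53, was above its mean of 1.80. A second peak between genes lay within 100 kb of 1645 peaks, 45.7% (44.0 to 47.3), and within 5 kb of 224, 6.22%. The longest stretch between neighbouring summits was 29.0 Mb on chromosome X, from near VCX3A to near MAGEB16, with 15.1 Mb between genes and 10 METTL3 peaks in or beside genes. It was followed by 14.1 Mb on chromosome 22 (from ISX to TAFA5), 12.7 Mb on chromosome 4 (from DTHD1 to CWH43) and 10.5 Mb on chromosome 17 (from LOC100996709 to PIRT). Each held 3 to 9 METTL3 peaks in or beside genes.

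A total of 2032 protein-coding genes, of 19259, were the nearest gene of at least 1 peak, 1355 of them of a single peak and 18 of 10 or more. REEP3 led with 21 peaks at 27.5 to 1120 kb, all on its 3′ side, with folds up to 6.83, and its surroundings, 1.14 Mb, had 18.4 peaks per Mb. These are the 15 peaks of the window from 64 to 65 Mb and the 6 of that from 63 to 64 Mb, counted again by gene. LRFN5, a synaptic adhesion gene, was nearest to 17 (7.14 per Mb), and the axon guidance receptor gene EPHA3 to 14 (4.26 per Mb), 4 of them in a gene-free stretch. ANKRD30A (13.3 per Mb), LOC124902528 (17.6), ZWINT (10.2), a kinetochore gene, and IGSF11 (10.6), an adhesion gene, had 13 each. CTNNA3 (10.4), the kinesin gene KIF2B (8.82) and LOC124904970 (4.08, with 2 peaks in a gene-free stretch) had 12 each. CTNNA3 itself held 20 more peaks inside the gene. The gene nearest to a peak need not be the gene that acts with it.

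Gene lists were compared through the share of sequence nearest to their members. Adhesion genes of the synapse were nearest to 117 peaks, 3.32% of those outside the long stretches (2.75 to 3.97), and to 3.25% of the sequence. In this list 33 of 51 members had a peak, led by LRFN5, LSAMP (10 peaks), CNTN3 (8) and LRRC4C (7). Developmental transcription factors were nearest to 117 as well, and to 3.07% of the sequence. There 48 of 91 members had a peak, among them SOX9 (7), TBX3 (7) and BCL11B (5). Axon guidance genes had 57 peaks outside the stretches (1.62% against 1.36% of the sequence) and 61 in all, led by EPHA3, EFNA5, NRP1 and ROBO2. Glutamate and GABA receptor genes, a list that holds no receptor for other transmitters, had 22 (0.624% against 0.837%), led by GRM7 (5), and voltage-gated channel genes had 18 outside the stretches (0.511% against 0.502%) and 21 in all, led by KCNH5 and KCND2. Olfactory receptor genes had 46 outside the stretches (1.30% against 1.01%) and 47 in all. The ZNF zinc finger genes had 73 outside them (2.07% against 1.73%) and 85 in all. For each of these lists the interval took in the share of the sequence.

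Cadherin and protocadherin genes were the exception, with 43 peaks, 1.22% (0.884 to 1.64), against 2.36% of the sequence. At the mean densities of the chromosomes they lie on, their surroundings would hold 61.5. PCDH15, in the chromosome 10 block, was nearest to 11, CDH4 to 6, CDH7 to 5 and CDH10 to 3, and 16 of 32 members had none. This was 1 of 12 lists compared, and the intervals were not adjusted for that number.

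For genes of the prostate, the m6A pathway and the immediate early response, little sequence and few peaks were at hand. Androgen-regulated and luminal genes were nearest to 2 (0.0567% against 0.197% of the sequence), at STEAP4, 79.8 kb away with a fold of 5.31, and at FOLH1, 350.3 kb away with a fold of 5.01. Basal and mesenchymal genes also had 2 (0.0567% against 0.170%), near FN1, the fibronectin gene (fold 5.61), and MMP2, a matrix protease gene (5.92). In the m6A machinery 1 of 22 matched genes had a peak, the reader gene YTHDF1, at 68.6 kb with a fold of 4.10 (0.0284% of peaks against 0.0653% of the sequence). AP-1 and immediate early genes had 9 (0.255% against 0.189%), at 6 of 25 genes, among them EGR2 (3 peaks, folds up to 6.92), NR4A3 (2), EGR1 and EGR4. The sequence nearest to each of these 4 lists came to 0.9 to 2.8 Mb, and the interval of each took in its share of the sequence.

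**Figure D4:**
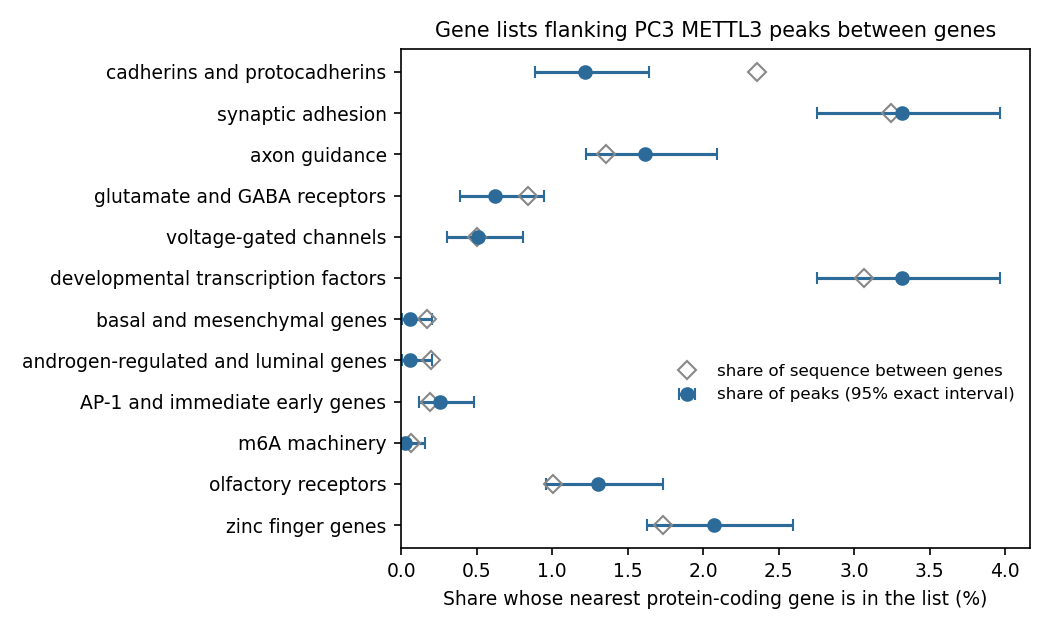
Share of peaks between genes whose nearest protein-coding gene is in each of 12 lists (blue circles, with exact 95% binomial intervals) and share of the sequence between genes nearest to the same genes (grey diamonds), in %. The diamond falls inside the interval for every list but the cadherins, where 1.22% of peaks stand against 2.36% of sequence.

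Most PC3 METTL3 peaks, between genes or not, were seen in no other list. Of the 3602, 3523 (97.8%) overlapped no peak of PC3 PRMT5, LNCaP METTL3 or LNCaP PRMT5 by even 1 bp, against 97.7% of all 6758 and 97.6% of the 3156 others. Among the rest, 66 overlapped 1 of these lists, 7 overlapped 2 and 6 all 3. Both PC3 lists were called against 1 control library, so the overlap between them is a description and supports nothing else; the tests compare classes of METTL3 peaks with each other. A PC3 PRMT5 peak overlapped 71, 1.97% (1.54 to 2.48), and 2.03% of all 6758 METTL3 peaks were overlapped. The share in the other METTL3 peaks was 2.09% (1.62 to 2.65), and the odds ratio was 0.941 (0.661 to 1.34; Fisher's exact test, adjusted p = 1.0 over 3 tests). LNCaP PRMT5 overlapped 20, 0.555%, against 0.547% of all METTL3 peaks (odds ratio 1.03, 0.512 to 2.1; Fisher's exact test, adjusted p = 1.0). LNCaP METTL3 overlapped 7, 0.194%, against 0.207% of all (odds ratio 0.876, 0.262 to 2.93; Fisher's exact test, adjusted p = 1.0). The intervals do not show the classes to be alike, and for LNCaP METTL3 they are wide.

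The share with a PC3 PRMT5 peak was high at both ends of the METTL3 fold. It was 16.4% (8.49 to 27.5) at a fold of 8 or more, 11 of 67, then 2.13% at 6 to 8, 0.732% (0.352 to 1.34) at 5 to 6, 1.29% at 4 to 5 and 6.62% (4.09 to 10.0) under 4, 20 of 302. Outside repeat-prone places the shares were 18.2% at 8 or more and 4.23% under 4. Of the 20 highest peaks, 7 were overlapped by PC3 PRMT5, 1 by LNCaP PRMT5 and 0 by LNCaP METTL3. The other METTL3 peaks showed the same shape, with 9.62% (3.20 to 21.0) at 8 or more and 5.99% under 4. The part of the shared control in this shape was not tested.

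**Figure D5:**
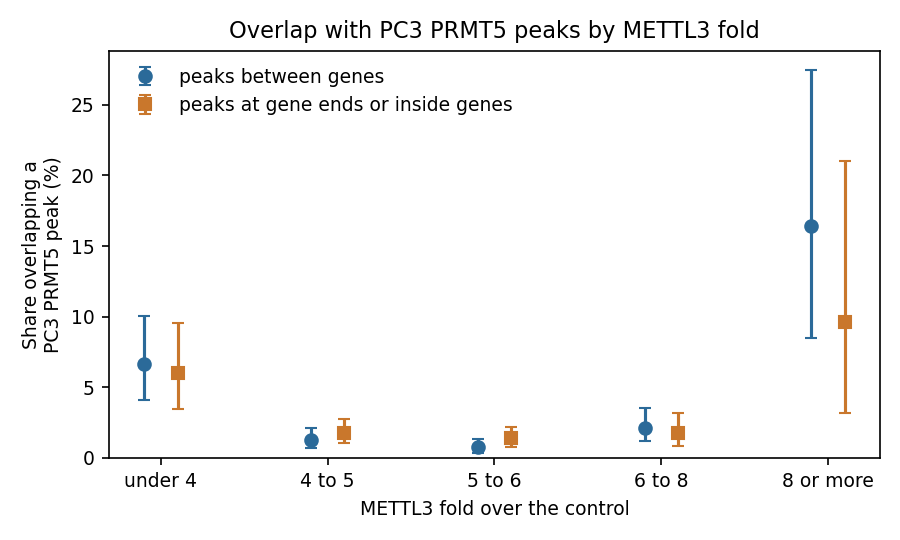
Share of PC3 METTL3 peaks that overlap a PC3 PRMT5 peak (%) in 5 classes of METTL3 fold, for peaks between genes (blue circles) and peaks at gene ends or inside genes (orange squares), with exact 95% binomial intervals. Among peaks between genes the share is 16.4% at a fold of 8 or more and 0.732% at 5 to 6.

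The 71 regions shared with PC3 PRMT5 were ranked by the smaller of their folds, and folds of different lists are set side by side without being compared. The first was at chr5:85193890-85194279, 809.2 kb upstream of EDIL3, a gene for an integrin-binding matrix protein, with a fold of 10.2 for METTL3 and 13.8 for PRMT5. The region at chr6:44044471-44045072, inside the noncoding gene SCIRT and 68.8 kb beyond MRPL14, had 10.2 and 23.2, and a LNCaP PRMT5 fold of 5.33. It was followed by regions near TRIML1 (8.34 and 12.3), LRRN1 (9.44 and 7.82), WSB1 (10.3 and 7.82) and CNTNAP5 (7.74 and 8.53), a neurexin-family gene.

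All 7 peaks shared with LNCaP METTL3 had modest folds in PC3, from 2.41 to 5.05. At chr20:49617377-49617785, 15.3 kb beyond the galactosyltransferase gene B4GALT5, METTL3 had a fold of 5.05 in PC3 and 4.11 in LNCaP, and PRMT5 had 18.2 and 4.48. At chr3:5540588-5540948, 320.9 kb from EDEM1, a gene of protein quality control in the endoplasmic reticulum, METTL3 had 4.58 and 9.06 and PRMT5 6.80 and 9.59. At chr11:356757-357094, 12.5 kb from B4GALNT4, the METTL3 folds were 4.10 and 9.28. The peaks nearest SOX8 (2.56 in PC3 and 2.79 in LNCaP) and SPDYE17 (2.97 and 3.82) lay inside pseudogenes. The last ones were nearest the Notch ligand gene DLL1 (2.41 and 2.51) and GUCY1A2 (3.50 and 6.78), a guanylate cyclase gene. The GUCY1A2 region was the one of the 7 with no PRMT5 peak in either line. The other 6 were the peaks found in all lists. The regions near DLL1 and B4GALNT4 lay in repeat-prone places. So did 16 of the 71 regions shared with PC3 PRMT5, 22.5%, and 9 of the 20 shared with LNCaP PRMT5, 45.0%. Among all peaks between genes 6.55% did.

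Both PRMT5 lists overlapped 13 peaks between genes, 7 of them in repeat-prone places. Besides those named, they lay near CWH43, EMB, OR8U8, OR11H1, DLGAP1, a postsynaptic scaffold gene (METTL3 fold 5.59, PRMT5 folds 5.01 in PC3 and 3.63 in LNCaP), and PLCXD1 at the tip of chromosome X, where PRMT5 had folds of 32.9 and 16.9 and METTL3 one of 4.40.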

How the data were processed

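The authors deposited 1 peak list per antibody library, 4 in all, each called on a single library with the control of the same line, per the file names. The submitters' processing notes name MACS2 2.1.0, Bowtie 1.1.1, Trimmomatic 0.33, bcl2fastq 2.17 and ChIPseeker, with hg38; how they were set, and whether duplicates were removed or reads shifted, was not given in the sources used here. For every peak the deposited files hold a score, which was 10 times the −log10 q rounded down, a fold (the summit's ratio to what the control predicts), −log10 p, −log10 q and a summit. These are the authors' values, and here they served for description, ranking and filters; for regions shared by lists, the folds of each list are given side by side. The highest q among the PC3 METTL3 peaks was 0.0494.

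Of 7500 entries of the PC3 METTL3 file, 6758 were kept. Gene positions came from RefSeq (GRCh38.p14), with 19259 protein-coding genes and 56650 genes of every type on these chromosomes; strand came from its promoter table, whose 1830 overlapping windows of opposite strand were all reverse complements. No genome sequence was used here, so peak sequences, repeats and GC content of peaks were not analysed. Sequence was measured on points 1 kb apart, from the outermost gene or peak of a chromosome, leaving out stretches of at least 2 Mb without a gene. Shares have exact (Clopper-Pearson) 95% intervals and densities exact Poisson ones. Fisher's exact tests were two-sided with Benjamini-Hochberg adjustment over 3 tests. Distances, nearest genes and overlaps were checked against a direct search of every gene and peak on simulated data of 1500 peaks, with 0 wrong values. All 75 planted overlaps were recovered, but they were wide by design, so this is the weaker check.

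Named items were the 20 peaks of highest fold, the 5 densest windows of 1 Mb (8 are given), the 6 strongest regions shared with PC3 PRMT5, those shared with LNCaP METTL3, the 5 farthest peaks, the 10 genes nearest to most peaks, up to 4 genes per list and the 5 longest stretches; a few items that this rule names are not reported here. The rule's sequences of the highest peaks could not be given, and promoter windows and a miRNA stand in their place. The members and the 12 gene lists were chosen with earlier results of these data known. Python 3.11.15, pandas 2.3.3, scipy 1.17.1 and statsmodels 0.14.6 were used.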

Additional observations from a re-analysis of the deposited data

How the results depend on the processing

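The share of the list between genes, 53.3%, was 55.1% with a limit of 1 kb, 48.7% with 10 kb and 36.0% when genes of every type counted; it stayed within its interval under the other 5 alternatives (whole peak, centre, −log10 q of at least 3, fold of at least 5, no repeat-prone places). Peaks with a neighbour within 100 kb, 45.7%, were 37.2% at a −log10 q of at least 3 and 34.3% at a fold of at least 5, which leave fewer peaks, and 16.0% within 20 kb and 81.0% within 500 kb. Peaks over 100 kb from a gene, 50.1%, were 8.22% when genes of every type counted. Summits in a long noncoding RNA gene or pseudogene, 26.0%, were 23.2% with long noncoding RNA genes alone. The median fold moved by less than its spread.

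None of 24 alternatives gave an overlap difference past the threshold (smallest unadjusted Fisher's exact p = 0.218), but its sign turned in 8, and the cause was not tested. When overlaps had to cover at least 50% of both peaks, which leaves fewer, the share overlapped by PC3 PRMT5 was 1.03% in place of 1.97% and by LNCaP PRMT5 0.222% in place of 0.555%. At a fold of at least 5 in both lists, LNCaP METTL3 overlapped 0 of 2136 peaks in place of 7 of 3602. Where the sign turned, the share overlapped by PC3 PRMT5 was 2.14% (summits within 500 bp), by LNCaP METTL3 0.167% (at least 50% of both peaks), 0.234% (−log10 q of at least 3) and 0.213% (over 10 kb), and by LNCaP PRMT5 0.610% (−log10 q of at least 3), 0.187% (fold of at least 5), 0.537% (over 1 kb) and 0.327% (no repeat-prone places).

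No paired analysis was possible because each group has 1 library, and for the same reason no library was left out in turn. GC content was not run, since no genome sequence was used. Read depth is unknown.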
